A study of Mus musculus with 8 samples.

Results

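In fat of the inguinal pad, a subcutaneous depot in the groin, expression was examined for the 10 genes through which fat cells take up fatty acids and carry them inside the cell: the fatty acid transport protein genes Slc27a1, Slc27a2, Slc27a3 and Slc27a4, the surface receptor gene Cd36, the lipase and anchor genes Lpl and Gpihbp1, and the fatty acid binding protein genes Fabp3, Fabp4 and Fabp5. They were chosen by name, each as the row whose RefSeq accession belongs to that symbol, and make up 10 of the 23360 genes in the files. RNA was sequenced from 6-week-old mice in 8 libraries: 4 Lsd1 KO libraries, in which floxed Lsd1 (Kdm1a, a histone demethylase) is deleted by Adipoq-Cre, and 4 control libraries from mice with the same floxed Lsd1 and no knockout. Adipoq-Cre is active in adipocytes, so other cells of the pad keep the gene, and all groups carry the floxed allele. With no group of Adipoq-Cre alone, effects of the transgene and of losing Lsd1 cannot be told apart. The labels do not state that each library is a separate mouse, and a p-value here speaks only of the spread among these libraries, part of which may be technical.

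Fatty acids reach an adipocyte mostly inside triglyceride-rich lipoproteins. Lipoprotein lipase, made by the adipocyte and carried to the capillary wall by the endothelial protein GPIHBP1, frees them, and CD36 and the FATP proteins help them across the membrane, the FATPs also joining them to coenzyme A. Inside the cell FABP proteins hold fatty acids in solution, with FABP4 as the main adipocyte form, and the uptake genes are known targets of PPARG, the master regulator of fat cells.

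Values are scaled reads, that is read counts multiplied by the authors with 1 factor per library. Library totals were 13999923 to 14369969 scaled reads, made from 25671837 to 32442724 recovered reads. Kdm1a had 547 to 581 scaled reads in Lsd1 KO libraries and 685 to 799 in control libraries, with no overlap. Adipocyte markers were abundant, for example Adipoq at 25163 to 31049 scaled reads in Lsd1 KO libraries and 30754 to 39979 in controls. The summed level of 15 adipocyte markers was 314578 to 360855 in Lsd1 KO libraries and 429399 to 496123 in control libraries, without overlap, and 1 of the 15 (Cidec, a lipid droplet protein gene) was called lower. Of the 15, 11 had a log2 fold change below 0 and 4 above 0, beside 45.4% below 0 among all genes tested. The sum is weighted to abundant genes such as Cfd, which averaged 101048 in Lsd1 KO and 152332 in control libraries. What lowered the sum was not tested, and fewer adipocytes in a pad and less RNA per adipocyte cannot be told apart in such bulk samples. The summed level of 19 skeletal muscle markers was 226687, 212896, 15123 and 131880 in Lsd1 KO libraries 1 to 4 and 10565 to 44097 in control libraries, and Lsd1 KO libraries 1 and 2 also held keratinocyte transcripts (Krt5 at 237 and 82.2 scaled reads, against at most 0.49 in the other 6 libraries). The summed level of 8 keratinocyte markers was 2221, 963, 474 and 586 in Lsd1 KO libraries 1 to 4 and 545 to 633 in control libraries. That of 17 mammary epithelium markers was 213 to 706 in Lsd1 KO and 123 to 212 in control libraries, with Csn1s1 and Wap at 0 in all 8. Krt5 is counted among these mammary markers, so their level, also when used as a covariate, partly restates the keratinocyte signal. Control libraries 1 and 2 carry the title numbers 518 and 517, away from 356 to 361 in the rest, and had a summed level of 12 B cell markers of 11106 and 8483, against 13431 to 18685 in Lsd1 KO libraries and 18601 and 15633 in controls 3 and 4. The part of these differences in the results below was not tested other than by the fits named there.

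All 10 genes passed the filter on low values (10 scaled reads in at least 4 libraries). Of the 10, 1 was called lower in Lsd1 KO fat and 0 were called higher by limma at an adjusted p under 0.05. Among all 14591 genes tested 1.64% were called, 0.356% lower and 1.28% higher. At an unadjusted p under 0.05, 3 of the 10 would count (Slc27a1, Slc27a2 and Lpl), beside 14.5% of all genes, and edgeR's quasi-likelihood test called 0 of the 10 in either direction. The median log2 fold change of the 10 genes was -0.17, with 7 below 0, and that of all genes tested was 0.02, with 45.4% below 0. In 4 genes every Lsd1 KO library lay below every control library (Slc27a1, Slc27a2, Cd36 and Fabp4), and in 1 every Lsd1 KO library lay above (Slc27a3). Among all genes tested 8.65% were separated in this way, 3.58% with Lsd1 KO lower and 5.06% with Lsd1 KO higher. The 10 genes together held 1.58 to 1.70% of the scaled reads of an Lsd1 KO library and 1.86 to 2.49% of a control library.

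**Figure D1:**
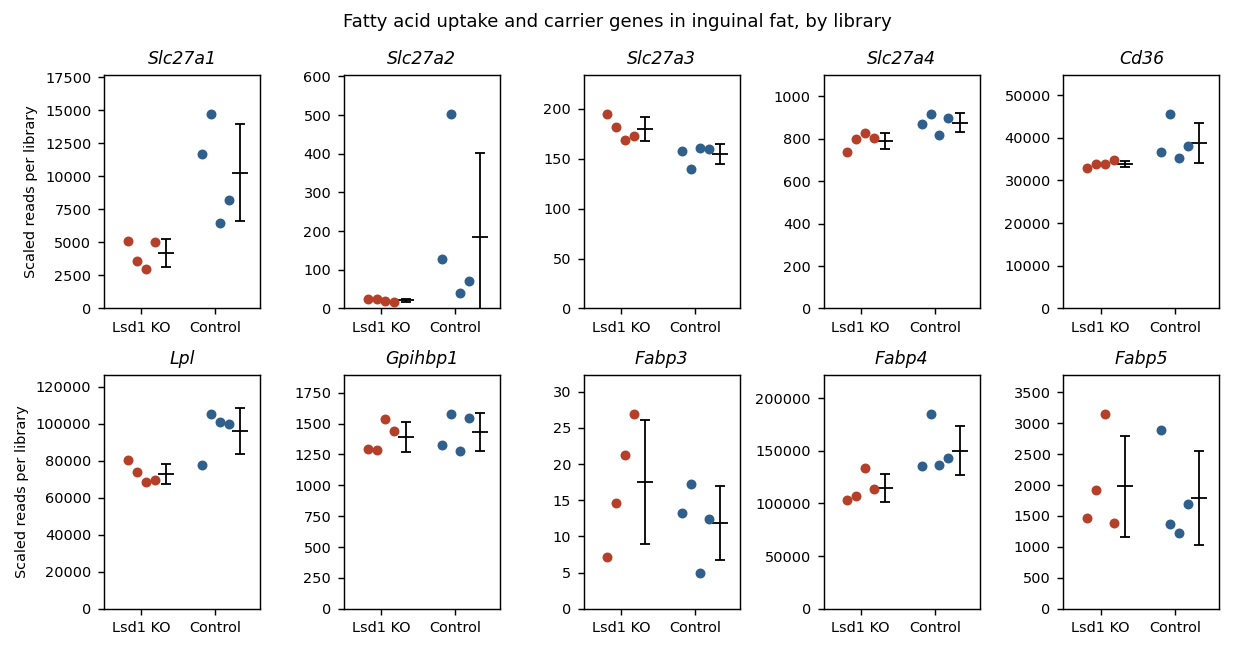
Scaled reads of each of the 10 genes (vertical axes, each from 0) in the 4 Lsd1 KO libraries (red, left) and the 4 control libraries (blue, right), with the mean and SD beside the points; the lower SD bar of Slc27a2 in controls passes below 0 and is not shown there. Slc27a1, Slc27a2, Cd36 and Fabp4 lie lower in every Lsd1 KO library, Slc27a3 lies higher, and the groups of the other 5 genes overlap.

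The FATP family held the largest differences among the 10 genes, both lower in Lsd1 KO fat. Slc27a1 encodes FATP1, the FATP of adipocytes and muscle, which moves to the cell surface in response to insulin. Its gene lies on chromosome 8 at 71568728 to 71587307, plus strand (GRCm38.p6, as are all coordinates here). Slc27a1 had 5098, 3598, 2980 and 5067 scaled reads in Lsd1 KO libraries 1 to 4, against 11723, 14762, 6497 and 8189 in control libraries 1 to 4. The highest Lsd1 KO library stood below the lowest control, so the groups did not overlap. The means were 4186 ± 1066 in Lsd1 KO and 10293 ± 3690 in control libraries (SD, n = 4 each), the Lsd1 KO mean being 40.7% of the control mean. Slc27a1 fell by 1.26 on the log2 scale (SE 0.26, 95% interval -1.85 to -0.67), with an adjusted p of 0.0495 by limma over all genes, close to the threshold.

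The call on Slc27a1 was lost when 1 library was left out in 7 of 8 cases, while the direction stayed. Its adjusted p by limma was 0.0513, 0.161, 0.0677 and 0.0976 without Lsd1 KO library 1, 2, 3 or 4, and 0.138, 0.0972 and 0.0909 without control library 1, 2 or 4. Without control library 3, the lowest control, it was 0.0319. Leaving out both controls numbered 518 and 517 gave a log2 fold change of -0.84 and an adjusted p of 0.272, and the remaining controls (6497 and 8189) still stood above every Lsd1 KO library. With edgeR's quasi-likelihood test the log2 fold change was -1.33 and the adjusted p 0.0501, and with DESeq2 they were -1.33 and 2.41e-05.

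Muscle also makes FATP1, and Lsd1 KO library 3 had both the lowest muscle marker sum (15123) and the lowest Slc27a1 (2980) of its group. Among controls, library 3 had the highest muscle marker sum (44097) and the lowest Slc27a1 (6497). The part of muscle RNA in these values was not tested other than by the covariate fit. With a marker level as a covariate the log2 fold change of Slc27a1 was -1.56 for muscle (adjusted p = 0.0458, limma) and -0.91 for B cells (adjusted p = 0.0224, limma). It was -1.24 for mammary epithelium (adjusted p = 0.253, limma), -1.34 for keratinocytes (adjusted p = 0.100, limma) and -0.70 for endothelium (adjusted p = 0.974, limma), whose marker level separates the genotypes by itself. Set against the mean log2 level of the adipocyte markers, Slc27a1 stood at -1.41, -1.96, -2.31 and -1.44 in Lsd1 KO libraries 1 to 4 and at -0.52, -0.40, -1.41 and -1.09 in control libraries 1 to 4. On that scale the groups touched, Lsd1 KO library 1 and control library 3 lying level at 2 decimals.

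**Figure D2:**
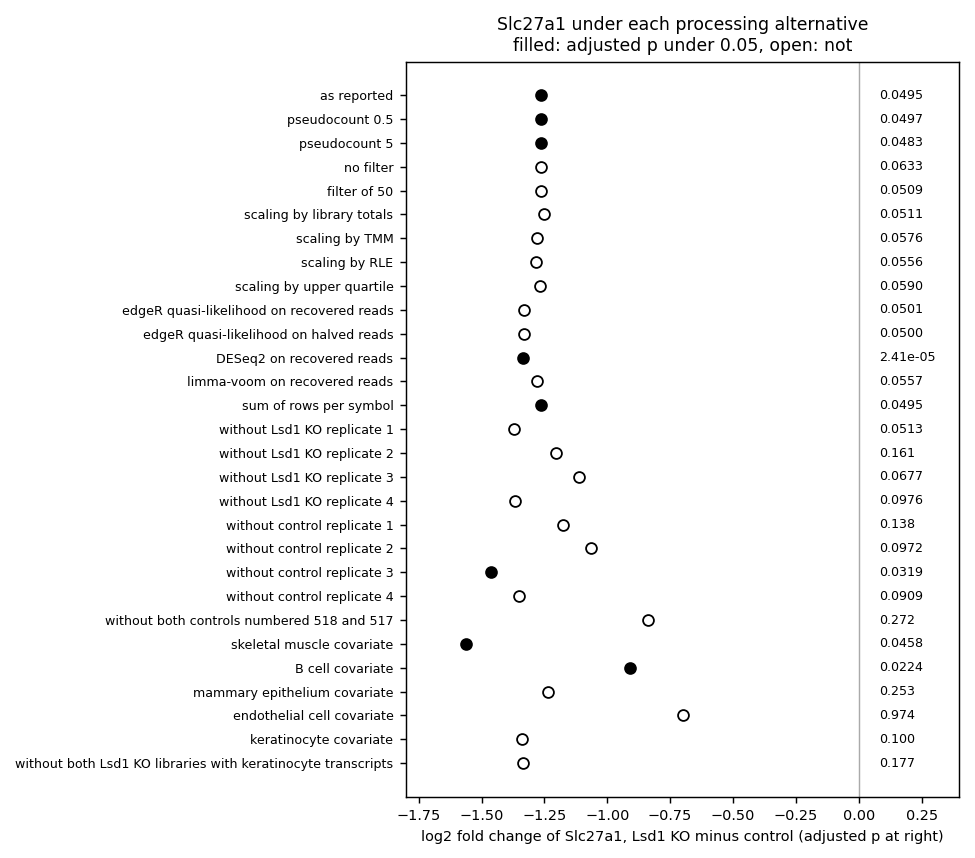
Log2 fold change of Slc27a1 (horizontal axis, Lsd1 KO minus control) as reported and under each of 28 alternatives in processing or samples (rows), with the adjusted p at the right; filled points have an adjusted p under 0.05. All points lie below 0, between -1.56 and -0.70, and 7 of the 28 alternatives keep the call.

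Slc27a2 encodes FATP2, a very long-chain acyl-CoA synthetase best known from liver and kidney, and lies on chromosome 2 at 126553024 to 126588243, plus strand. Slc27a2 had 24.54, 24.49, 18.58 and 17.97 scaled reads in Lsd1 KO libraries 1 to 4, against 127, 504, 40.6 and 70.1 in control libraries 1 to 4. All Lsd1 KO libraries were low and close to each other, and the controls were higher and scattered widely, with control 2 far above the rest. The coefficient of variation was 16.9% among Lsd1 KO and 116% among control libraries, on 36 to 1026 recovered reads. Its log2 fold change was -2.41 (SE 0.63, 95% interval -3.81 to -1.004), the largest of the 10 genes in size, and its adjusted p of 0.108 by limma missed the threshold. Without control library 2 the log2 fold change was -1.71, and without both controls 1 and 2 it was -1.30 (adjusted p = 0.154). Slc27a2 passed with DESeq2 (adjusted p = 0.00317) and without control library 3 (0.0498, limma). Set against the mean log2 level of the adipocyte markers, Slc27a2 was at -9.56 to -9.05 in Lsd1 KO and -8.69 to -5.27 in control libraries, without overlap. Its exons share 419 bases with the noncoding gene Gm26697 on the other strand, and as strand use in counting is not given in the sources used here, reads of these genes cannot be told apart.

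The remaining FATP genes differed little and did not pass the test. Slc27a3 encodes an FATP with acyl-CoA synthetase activity. Slc27a3 had 195, 182, 169 and 173 scaled reads in Lsd1 KO libraries 1 to 4, against 158, 140, 161 and 159 in control libraries 1 to 4. Every Lsd1 KO library was above every control, by a small margin, with a log2 fold change of 0.21 (95% interval -0.01 to 0.44, adjusted p = 0.376, limma). Slc27a4 encodes FATP4, known for fatty acid handling in gut and skin. Slc27a4 had 738, 799, 828 and 802 scaled reads in Lsd1 KO libraries 1 to 4, against 868, 919, 818 and 900 in control libraries 1 to 4. Only Lsd1 KO library 3 and control library 3 made the groups overlap, and the log2 fold change was -0.15 (95% interval -0.31 to 0.02, adjusted p = 0.399, limma).

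Per kilobase of transcript, Slc27a1 made up 83.5 ± 3.86% of the signal of these 4 FATP genes in Lsd1 KO libraries and 91.0 ± 1.69% in control libraries (SD, n = 4 each), with ranges of 78.9 to 86.8% and 89.0 to 92.8%. Slc27a4 held 11.4 ± 2.96% in Lsd1 KO and 5.81 ± 1.76% in control libraries, and Slc27a3 held 4.60 ± 0.87% in Lsd1 KO and 1.88 ± 0.72% in control libraries. Slc27a2 held 0.42 ± 0.10% in Lsd1 KO and 1.31 ± 1.145% in control libraries. Slc27a1 was the main FATP transcript of the pad in both genotypes, and these shares restate the values above and were given no test of their own.

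The promoters of the FATP genes are shown because the family divides into a pair that stood lower in every Lsd1 KO library and a pair that differed little. Each is 300 bases from RefSeq (GRCm38.p6), 250 before and 50 after a start site, read 5′ to 3′ on the gene's strand, with capitals marking any match, on either strand, to the CCAAT box (CCAAT), the GC box (GGGCGG), the TATA box (TATAAA), the nuclear receptor half-site (AGGTCA), its direct repeat spaced by 1 base that PPAR and RXR bind (AGGTCANAGGTCA) or the E-box (CACGTG); no matches overlapped in these windows. RefSeq gives 3 windows for Slc27a1, and the one printed has the start site nearest to that of the counted transcript. For Slc27a2 the window's start site is 126553024, but the counted transcript starts at 126552407 in GENCODE M21, upstream of the whole window. The regions are chr8:71568621-71568920 (plus), chr2:126552774-126553073 (plus), chr3:90389889-90390188 (minus) and chr2:29802384-29802683 (plus).
Slc27a1: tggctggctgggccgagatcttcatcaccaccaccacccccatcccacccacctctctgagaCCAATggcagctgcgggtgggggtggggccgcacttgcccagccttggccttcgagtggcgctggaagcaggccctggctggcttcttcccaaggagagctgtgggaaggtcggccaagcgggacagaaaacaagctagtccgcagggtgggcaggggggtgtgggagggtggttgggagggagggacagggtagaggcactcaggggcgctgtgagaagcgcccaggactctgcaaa
Slc27a2: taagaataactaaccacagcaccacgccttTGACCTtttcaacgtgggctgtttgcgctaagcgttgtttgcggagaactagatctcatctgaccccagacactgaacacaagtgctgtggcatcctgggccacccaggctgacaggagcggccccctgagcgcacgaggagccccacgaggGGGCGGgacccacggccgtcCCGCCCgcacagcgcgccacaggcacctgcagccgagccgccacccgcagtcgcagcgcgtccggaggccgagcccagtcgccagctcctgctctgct
Slc27a3: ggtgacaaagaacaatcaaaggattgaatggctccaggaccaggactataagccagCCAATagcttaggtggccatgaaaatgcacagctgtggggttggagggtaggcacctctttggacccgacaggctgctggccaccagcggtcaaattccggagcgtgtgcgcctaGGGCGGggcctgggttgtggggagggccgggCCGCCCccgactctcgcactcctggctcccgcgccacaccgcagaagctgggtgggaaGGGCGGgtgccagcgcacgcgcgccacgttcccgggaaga
Slc27a4: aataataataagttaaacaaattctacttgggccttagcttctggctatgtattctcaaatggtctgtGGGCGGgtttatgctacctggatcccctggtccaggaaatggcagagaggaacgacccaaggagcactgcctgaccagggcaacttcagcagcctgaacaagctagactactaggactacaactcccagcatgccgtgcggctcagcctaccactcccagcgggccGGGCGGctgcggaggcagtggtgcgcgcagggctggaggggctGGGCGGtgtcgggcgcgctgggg

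The Slc27a1 window held 1 CCAAT and 0 GC boxes, that of Slc27a2 held 2 GC boxes and 1 half-site, that of Slc27a3 held 1 CCAAT and 3 GC boxes, and that of Slc27a4 held 3 GC boxes. The direct repeat, TATAAA and CACGTG were found in 0 of these 4 windows. Of all 32851 RefSeq promoter windows of this length, 37.4% held CCAAT, 35.7% GGGCGG, 13.6% TATAAA, 16.3% AGGTCA, 0.0396% AGGTCANAGGTCA and 7.15% CACGTG. GC content was 65.7, 65.3, 64.3 and 58.7% in Slc27a1, Slc27a2, Slc27a3 and Slc27a4, with 10, 25, 20 and 14 CpG sites, and the medians of all promoters were 52.7% and 7. The other 2 RefSeq windows of Slc27a1 held 1 and 3 GC boxes, and the one with 3 also held 1 CCAAT and 1 CACGTG. These counts say only what the windows hold. Promoter windows were at hand for 6 of the 10 genes.

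CD36, the scavenger receptor that binds long-chain fatty acids at the adipocyte surface, was among the most abundant transcripts. Cd36 had 33009, 33789, 33895 and 34711 scaled reads in Lsd1 KO libraries 1 to 4, against 36665, 45670, 35148 and 37980 in control libraries 1 to 4. The Lsd1 KO libraries were tightly grouped below the lowest control, and control 2 was the highest. The log2 fold change was -0.19 (SE 0.13, 95% interval -0.47 to 0.09), and the adjusted p of 0.529 by limma missed the threshold. Set against the mean log2 level of the adipocyte markers the direction turned, Cd36 standing at 1.285, 1.274, 1.202 and 1.339 in Lsd1 KO libraries 1 to 4 and at 1.126, 1.226, 1.03 and 1.122 in control libraries 1 to 4, with overlap.

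Lipoprotein lipase, the enzyme that frees fatty acids from lipoprotein triglyceride, is encoded by Lpl. Lpl had 80387, 74095, 68317 and 69529 scaled reads in Lsd1 KO libraries 1 to 4, against 77979, 105470, 101248 and 100053 in control libraries 1 to 4. Control library 1 lay inside the Lsd1 KO range and the other 3 controls lay well above it. The log2 fold change was -0.39 (95% interval -0.77 to -0.01), with an unadjusted p of 0.0465 and an adjusted p of 0.334 by limma, and Lpl passed the threshold with DESeq2 alone among the alternatives (log2 fold change -0.42, adjusted p = 0.0072). Gpihbp1, the endothelial gene for the anchor of that enzyme, had 1295, 1284, 1536 and 1439 scaled reads in Lsd1 KO libraries 1 to 4, against 1327, 1579, 1278 and 1542 in control libraries 1 to 4. The groups covered nearly the same range, and the log2 fold change was -0.04 (95% interval -0.26 to 0.17, adjusted p = 0.883, limma). The mean log2 level of 16 endothelial markers was 10.06 to 10.17 in Lsd1 KO libraries and 10.25 to 10.40 in control libraries, without overlap, and 0 of the 16 were called. The sign of the Gpihbp1 difference was not fixed, being 0.01 without control library 2.

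Fabp4, the adipocyte fatty acid binding protein gene, had the highest level per kilobase of the 10 genes. Fabp4 had 103594, 107409, 133452 and 114050 scaled reads in Lsd1 KO libraries 1 to 4, against 135945, 185117, 136582 and 143320 in control libraries 1 to 4. Lsd1 KO library 3 came close to the lowest control without reaching it, and control 2 was far above the others. Its log2 fold change of -0.39 (SE 0.20, 95% interval -0.84 to 0.07) gave an adjusted p of 0.437 by limma. The fold change of Fabp4 was about that of Lpl, and both stood beside adipocyte marker sums that were lower in all Lsd1 KO libraries. Set against the mean log2 level of those markers, Fabp4 was at 2.94 to 3.18 in Lsd1 KO and 2.99 to 3.25 in control libraries, and Lpl was at 2.21 to 2.57 in Lsd1 KO and 2.21 to 2.56 in control libraries, so that the groups of both genes overlapped.

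Fabp5, the epidermal fatty acid binding protein gene, which adipocytes and macrophages also express, had 1464, 1923, 3152 and 1380 scaled reads in Lsd1 KO libraries 1 to 4, against 2896, 1372, 1225 and 1695 in control libraries 1 to 4. The groups overlapped almost wholly, each with 1 high library (Lsd1 KO 3 and control 1), and the log2 fold change was 0.14 (95% interval -0.55 to 0.83, adjusted p = 0.874, limma). The sign turned without Lsd1 KO library 3 (-0.11) or without control library 3 (-0.01). The 2 high libraries also had the highest Ucp1 of their groups, the brown fat uncoupling protein gene, at 4732 scaled reads in Lsd1 KO 3 and 3189 in control 1. Ucp1 was not alone in this, as Acss2, an acyl-CoA synthetase gene, was also highest there (8061 and 11821). The keratinocyte transcripts lay in Lsd1 KO libraries 1 and 2. No relation of Fabp5 to any of these was tested. Of the Fabp5 transcript, 41.3% matched 2 processed pseudogenes at 95% identity or more (the longest being Gm6166 on chromosome 9, 409 bases at 98.3%), so its level is uncertain where reads fit more than 1 place.

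Fabp3, the heart and muscle fatty acid binding protein gene, was the lowest of the 3 FABP genes among the 10 and close to the filter. Fabp3 had 7.09, 14.7, 21.2 and 27.0 scaled reads in Lsd1 KO libraries 1 to 4, against 13.2, 17.2, 4.90 and 12.4 in control libraries 1 to 4. The groups overlapped, with the highest and lowest values of the 8 in Lsd1 KO 4 and control 3, and only 10 to 54 recovered reads lay behind a value. The log2 fold change was 0.49 (SE 0.46, 95% interval -0.54 to 1.52, adjusted p = 0.677, limma). Ckm, the muscle creatine kinase gene, was at 27435, 29010, 1763 and 16479 scaled reads in Lsd1 KO libraries 1 to 4 and at 990 to 4842 in control libraries, and its part in the Fabp3 values was not tested. Part of the Fabp3 coding sequence is printed because its reads are hard to place: over 402 bases, from the start to the stop codon, it matches the processed pseudogene Fabp3-ps1 (chromosome 10, 86731987 to 86732388, minus strand) at 99.3%, or 48.9% of the whole transcript. The stretch shown is bases 35 to 334 of the coding sequence in the Fabp3 transcript (GENCODE M21, GRCm38.p6, gene on chromosome 4, plus strand), and the capitals mark the bases that differ in the pseudogene.
Fabp3: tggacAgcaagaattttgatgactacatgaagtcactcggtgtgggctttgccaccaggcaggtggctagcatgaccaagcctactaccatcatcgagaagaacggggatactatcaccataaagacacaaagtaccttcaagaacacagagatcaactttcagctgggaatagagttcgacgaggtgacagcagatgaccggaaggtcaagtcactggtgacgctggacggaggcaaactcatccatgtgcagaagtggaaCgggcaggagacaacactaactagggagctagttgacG

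Counted from 1 at the first base of the start codon, with the Fabp3 base first, the substitutions are A40T, C297T and G334A, and the longest run without one is 256 bases. How reads that fit both places were counted is not given in the sources used here, and the pseudogene itself was not used here, so the low Fabp3 values are uncertain. The exons of Fabp3 also share 81 bases with the protein-coding gene Zcchc17 on the minus strand. As strand use in counting is not given, reads of Fabp3 and Zcchc17 cannot be told apart there. Over the FABP genes per kilobase, Fabp4 held 98.5 ± 0.44% of the signal in Lsd1 KO and 98.9 ± 0.55% in control libraries (SD, n = 4 each). Fabp5 held 1.51 ± 0.44% in Lsd1 KO and 1.11 ± 0.55% in control libraries, and Fabp3 held 0.0161 ± 0.0075% in Lsd1 KO and 0.0084 ± 0.0030% in control libraries.

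**Figure D3:**
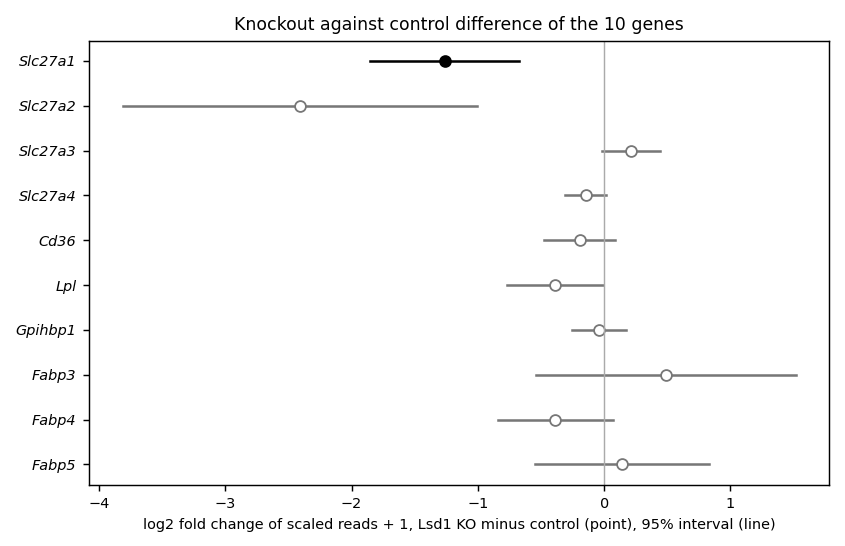
Log2 fold change (horizontal axis, Lsd1 KO minus control, on scaled reads + 1) of the 10 genes with its 95% interval as a line; the filled point passed the adjusted threshold. Slc27a1 at -1.26 is the filled point, Slc27a2 at -2.41 has the widest interval, and the other 8 genes lie between -0.39 and 0.49.

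Ordered by mean level per kilobase, the Lsd1 KO libraries gave Fabp4 (127931 scaled reads per kilobase), Lpl (17760), Cd36 (11224), Fabp5 (2006), Gpihbp1 (1683), Slc27a1 (1498), Slc27a4 (195), Slc27a3 (79.5), Fabp3 (21.3) and Slc27a2 (7.33). The control libraries gave Fabp4 (167680), Lpl (23375), Cd36 (12886), Slc27a1 (3683), Fabp5 (1821), Gpihbp1 (1735), Slc27a4 (216), Slc27a3 (68.5), Slc27a2 (63.6) and Fabp3 (14.5). The places of the highest 3 genes were the same in both genotypes, and Slc27a1 stood at place 6 in Lsd1 KO and place 4 in control libraries. Neighbours whose ranges overlapped were Slc27a1 with Fabp5 and Fabp5 with Gpihbp1 in both genotypes, and Slc27a1 with Gpihbp1 in Lsd1 KO alone. In controls alone the ranges of Slc27a2 overlapped with those of Fabp3 and Slc27a3. Read within each library, Slc27a1 stood above Fabp5, and Slc27a2 above Fabp3, in all 4 controls. In Lsd1 KO libraries Fabp3 stood above Slc27a2 in all 4, the opposite order. The other overlapping pairs, and Slc27a1 with Fabp5 in Lsd1 KO, did not keep 1 order in every library. These orders were given no test.

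Within-library ratios were compared for 5 pairs by exact permutation, two-sided; with 70 assignments no p under 0.0286 can be had. The log2 ratio of Gpihbp1 to Lpl averaged -5.72 ± 0.22 in Lsd1 KO and -6.07 ± 0.18 in control libraries (SD, n = 4 each), a difference of 0.35 with an exact p of 0.0571 and 0.191 after adjustment over the 5. For Cd36 to Fabp4 the means were -1.75 ± 0.15 in Lsd1 KO and -1.95 ± 0.06 in control libraries, a difference of 0.19 (exact p = 0.114, adjusted 0.191). The ratio of Fabp5 to Fabp4 differed by 0.53 (exact p = 0.200) and that of Fabp3 to Fabp4 by 0.87 (exact p = 0.114). Gpihbp1 against the endothelial markers differed by 0.14 (exact p = 0.171). None of the 5 ratios passed, and the groups overlapped in each.

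Related genes of the pathway were read from 5 lists. The largest change among them was in Got2, the gene for mitochondrial aspartate aminotransferase, a protein also described at the plasma membrane as a fatty acid binding protein. Got2 had 1030, 1119, 1208 and 1110 scaled reads in Lsd1 KO libraries 1 to 4, against 507, 432, 540 and 484 in control libraries 1 to 4. It rose by 1.19 on the log2 scale (SE 0.09, adjusted p = 0.000327, limma), the groups lay far apart, and the call held with each library left out in turn. Got2 was the 1 gene called higher, with 0 lower, of 14 tested genes for CD36 partners, class B scavenger receptors and caveolae (median log2 fold change -0.03). Cav1 and Cavin1, which build caveolae, had log2 fold changes of 0.11 (adjusted p = 0.719, limma) and -0.09 (adjusted p = 0.756, limma), and Fyn, a kinase that acts with CD36, had 0.24 (adjusted p = 0.314, limma).

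Among 19 tested genes that regulate lipoprotein lipase or take up lipoproteins, 1 was called higher and 0 lower (median -0.10). That gene was Sdc1, a heparan sulfate proteoglycan, with 469, 495, 431 and 595 scaled reads in Lsd1 KO libraries 1 to 4, against 329, 315, 326 and 361 in control libraries 1 to 4. It rose by 0.57 (SE 0.11, adjusted p = 0.0326, limma) without overlap of the groups, and the call was lost when Lsd1 KO 2 or 4 or any control was left out (adjusted p 0.0629 to 0.118). Apoe, an apolipoprotein that macrophages and adipocytes secrete, was at 62169 to 72412 scaled reads in Lsd1 KO and 46763 to 58099 in control libraries, without overlap (log2 fold change 0.35, adjusted p = 0.301, limma). Sort1, a sorting receptor, had -0.45 (adjusted p = 0.160, limma), and Lrp1, a receptor for lipoprotein remnants, -0.08 (adjusted p = 0.851, limma).

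Among 20 tested acyl-CoA synthetases and acyl-CoA binding proteins, which hold fatty acids in the cell after entry, 1 was called higher and 0 lower (median 0.06). Acsf2, a medium-chain acyl-CoA synthetase gene, had 1253, 1404, 1405 and 1144 scaled reads in Lsd1 KO libraries 1 to 4, against 1037, 899, 773 and 900 in control libraries 1 to 4. Acsf2 rose by 0.53 (SE 0.11, adjusted p = 0.0409, limma) without overlap, a call lost when any library other than control 1 was left out (adjusted p 0.0542 to 0.152). Acsl1, the main long-chain acyl-CoA synthetase of adipocytes, averaged 18857 ± 3406 in Lsd1 KO and 24392 ± 2154 in control libraries (SD, n = 4 each; log2 fold change -0.39, adjusted p = 0.273, limma). Acss3 had -0.86 (adjusted p = 0.200, limma), the low Acsl6 0.97 (adjusted p = 0.627, limma), and Dbi, the acyl-CoA binding protein gene, 0.04 (adjusted p = 0.935, limma).

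Of 11 tested genes for fatty acid receptors and endothelial lipid uptake, 2 were called lower and 0 higher (median -0.21). The enzyme of Hibadh uses up 3-hydroxyisobutyrate, a valine breakdown product known to promote fatty acid passage through endothelium. Hibadh averaged 2821 ± 106 scaled reads in Lsd1 KO and 3973 ± 498 in control libraries (SD, n = 4 each). It fell by 0.49 (SE 0.09, adjusted p = 0.0342, limma), a call lost when Lsd1 KO 1, 2 or 4 or control 1 or 4 was left out (adjusted p 0.0612 to 0.133). Aplnr, the apelin receptor gene of endothelium, averaged 585 ± 68.5 in Lsd1 KO and 831 ± 71.9 in control libraries and fell by 0.51 (SE 0.10, adjusted p = 0.0413, limma), a call lost when any library other than Lsd1 KO 1 was left out (adjusted p 0.0509 to 0.152). With the endothelial marker level as a covariate, which itself separates the genotypes, the log2 fold change of Aplnr was -0.15 and that of Got2 0.94, and neither was called. Ffar2, the short-chain fatty acid receptor gene of adipocytes, was at 444 to 541 scaled reads in Lsd1 KO and 640 to 1162 in control libraries, without overlap (log2 fold change -0.70, adjusted p = 0.102, limma). Nrp1, a VEGFB receptor, had -0.13 (adjusted p = 0.546, limma).

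The other FATP and FABP family genes were scarce. Of 13, 5 could be tested and 0 were called in either direction. The most abundant was Rbp7, at 776 to 1190 scaled reads in Lsd1 KO and 736 to 1679 in control libraries. Pmp2 had a log2 fold change of -0.83 (adjusted p = 0.482, limma) and Fabp7 of 0.39 (adjusted p = 0.553, limma), both on fewer than 34 scaled reads in every library. Slc27a5, the liver bile acid form of the FATPs, stayed under 4 scaled reads in all 8 libraries, and Fabp6 was at 0 in all 8.

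**Figure D4:**
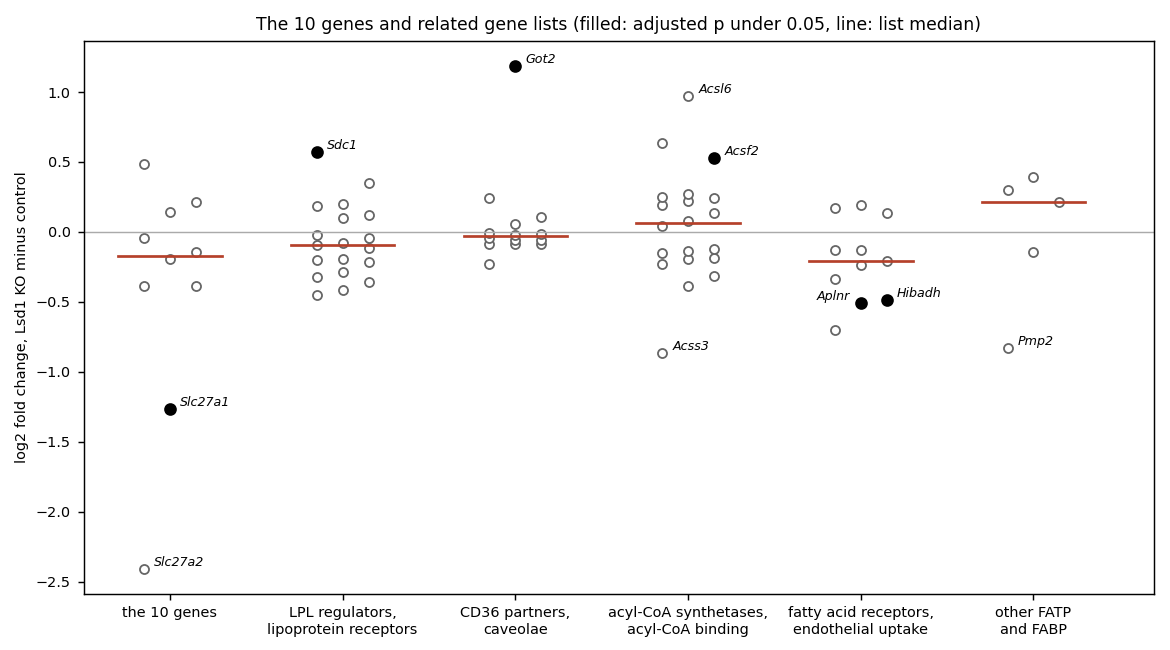
Log2 fold change (vertical axis, Lsd1 KO minus control) of every tested gene among the 10 and in the 5 related lists (columns), with filled points for an adjusted p under 0.05 and a red line at each list's median. The filled points are Slc27a1, Sdc1, Got2, Acsf2, Aplnr and Hibadh, and the medians of the 6 columns lie between -0.21 and 0.21.

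The genes whose variation among libraries of the same genotype was most like that of each gene were sought among 11267 genes, by Pearson's r of deviations from the genotype mean over 8 libraries, as a description only. For Slc27a1 these were Hacl1 (r = 0.99), Tgoln1 (0.99) and Hcar1 (0.98), and for Slc27a2 Acadl (0.99), Coq9 (0.98) and Hibch (0.97). For Lpl they were Plin1 (0.99), Eci3 (0.97) and Septin2 (0.97), and for Fabp4 Fah (0.99), Fkbpl (0.98) and Bod1 (0.98). For Fabp5 they were Pygl (0.99), Mapkap1 (0.98) and Dhrs7 (0.98). For Cd36 they were Rmdn1, Crls1 and St6galnac6, and for Gpihbp1 Lrrc41, Ppp1r3d and Cryzl2. Those of Slc27a3 were Ttc17, Zfhx3 and Ralgapa1, those of Slc27a4 Mrpl28, Cbwd1 and Immp2l, and those of Fabp3 Slc35a1, Coro1b and Fam136a. Of these 30, Hibch (log2 fold change -0.52, adjusted p = 0.0215, limma) and St6galnac6 (0.56, adjusted p = 0.027, limma) were themselves called between the genotypes. With 8 libraries the highest r among so many genes is large even for unrelated genes. The barely detected Fabp3 also reached 0.97, so these r values do not show that genes vary together.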

How the data were processed

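Inguinal fat RNA was sequenced in 4 Lsd1 KO and 4 control libraries. Per the submitters' processing notes and design text, alignment used TopHat2 (version 2) against mm10, counting used HOMER, and the authors compared groups with edgeR and DESeq 1.8.3. For the annotation, strandedness and scaling, settings are not given in the sources. The deposited values are a signal, read counts multiplied by 1 factor per library: 100% of values were whole multiples of a step of 0.442 to 0.545 within 0.02, and dividing by the step recovered the reads. A step may be 1 end of a read pair, so counting error can be larger than the recovered reads imply.

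Each file held 23373 rows, 1 of them blank and at 0. Accessions were matched to symbols with RefSeq (22527) and GENCODE M21 (124), and 721, with 1.64% of the reads, kept their accession. The main test was fixed as limma (3.58.1, R 4.3.3) in trend mode on log2(value + 1), since the values were described as scaled read counts. It was run on the 14591 genes with at least 10 in at least 4 libraries, Benjamini-Hochberg adjusted, threshold 0.05. A fold change on the log2(value + 1) scale understates the change of low genes. edgeR (4.0.16), DESeq2 (1.42.0) and limma-voom were run on the recovered reads as alternatives. Tables were made with Python 3.11.15 and pandas 2.3.3, and transcript copies were sought with BLAST 2.17.0 (at least 95% identity over 100 bases). In simulated libraries of this comparison (14501 genes), the limma fit recovered 40% of genes changed 1.5-fold, 86% at 2-fold, 96% at 4-fold and 98% at 8-fold, with 6 false calls of 166. The lowest genes were not among those changed, so these rates do not cover genes as low as Fabp3. Each simulated gene was drawn independently, without the muscle, keratinocyte or B cell differences of the real libraries, so real error can be larger.

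The genes, the lists and the tests were chosen with earlier results of these data known. Named genes are the 10, those past the threshold in a related list with its 2 most abundant and its 2 largest changes, and the 3 most similar to each of the 10. An item that this rule names is not reported here.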

Additional observations from a re-analysis of the deposited data

Results flagged for a closer look

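Of 30 groups of 4 libraries examined (10 genes and 5 ratios in each genotype), 3 held a library far from the others of its group by Dixon's criterion, and chance gives about 1 in 20. Slc27a3 was at 140.06 scaled reads in control replicate 2, the nearest other control being at 158.14. Fabp4 was at 185117 scaled reads in control replicate 2, the nearest other control being at 143320. The log2 ratio of Fabp3 to Fabp4 was -14.5 in control replicate 3, the nearest other control being at -13.4.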

How the results depend on the processing

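The number of genes called over all 14591 was 239, and was 776 with DESeq2, 97 without both controls numbered 518 and 517, 139 with a B cell covariate, 97 with a mammary epithelium covariate and 85 without both Lsd1 KO libraries that held keratinocyte transcripts (chosen after seeing the data). It was 1 with an endothelial covariate, whose level does not overlap between the genotypes and so stands in for genotype. Leaving out 1 library gave 87 to 449, with 101, 449 and 87 without Lsd1 KO 2, 3 or 4, and 135 and 138 without control 1 or 4. Of the 10 genes, 1 was called lower. That count was 3 with DESeq2 (Slc27a1, Slc27a2 and Lpl). It was 0 with no filter, a filter of 50, scaling by library totals, TMM, RLE or upper quartile, edgeR on recovered or halved reads, limma-voom, without controls 518 and 517, with a mammary or endothelial covariate and, chosen after seeing the data, with a keratinocyte covariate or without the keratinocyte-bearing libraries. Leaving out 1 library gave 0 to 2. None of the 10 was called higher under these settings. Slc27a1 lost its call in 21 of 28 alternatives (adjusted p 2.41e-05 to 0.974) and kept its direction in 28. Scaling left the median log2 fold change of all genes between 0.00099 and 0.034.

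Over the fits without 1 library Gpihbp1 ranged from -0.094 to 0.0072 and Fabp5 from -0.11 to 0.40. Gpihbp1 turned to a log2 fold change of 0.0072 without control 2, 0.087, 0.068, 0.10 and 0.054 with muscle, mammary, endothelial and keratinocyte covariates, and 0.061 without the keratinocyte-bearing libraries. Fabp5 turned to -0.11 without Lsd1 KO 3, -0.014 without control 3 and -0.67 with the endothelial covariate. The causes were not tested. The 5 ratios kept sign when 1 library was left out. No paired analysis was possible because the title numbers are not shared between genotypes. Depth limits Fabp3 most, at 10 recovered reads in its lowest library.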

Other observations

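The brown and beige adipocyte markers and Slc27a1 were set side by side after their values were seen, and no relation was tested. In Lsd1 KO libraries 1 to 4 the mean log2 level of 10 such markers, among them Ucp1, was 7.89, 8.52, 8.90 and 7.66, and Slc27a1 was at 5098, 3598, 2980 and 5067 scaled reads. Within Lsd1 KO the pair of libraries with more marker RNA had the lower Slc27a1. In control libraries 1 to 4 the marker level was 8.64, 8.499, 7.34 and 7.70, and Slc27a1 was at 11723, 14762, 6497 and 8189 scaled reads. Within controls the pair of libraries with more marker RNA had the higher Slc27a1. That pair of controls is the one numbered 518 and 517. Inside the Lsd1 KO pair with less marker RNA and the control pair with more, the order differs between the mean log2 level and the summed level of the markers. With 4 libraries a genotype no correlation is given.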
